A study of Mus musculus with 5 samples.

Results

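The 10 genes described here, Acta2, Tagln, Myh11, Myl9, Cnn1, Tpm1, Tpm2, Des, Rgs5 and Actg2, form the classical smooth muscle contractile set, and they are 10 of the 41028 gene names in the deposited matrices. All 10 had unique molecular identifier (UMI) counts, each UMI standing for a captured transcript molecule, and they were named because most were lower in a stored library, so that drop is described here and not tested. The tissue was mammary tumour of PyMT mice, which carry the polyoma virus middle T antigen as a transgene; the labels give neither the promoter nor the strain, age or number of animals, and every library has this genotype. After digestion of the tumours and enrichment for viable cells, single cells were captured by the droplet system 10x Genomics Chromium 3' v2 or by the microwell system BD Rhapsody with its whole transcriptome assay.

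There were 2 libraries of fresh tumour on 10x (fresh 10x 1 and 2), 1 on 10x titled as 24 h (stored 10x), and 2 on BD Rhapsody (BD 1 and BD 2). Per the labels' protocols, the deliberately damaged material was a digest kept at 4 °C overnight, taken on only after flow cytometry showed at least 20% lower viability. BD 1 is titled fresh. BD 2 is also titled fresh but its files are named for 24 h, so its storage state is not taken as known and it enters no test other than an alternative that is named as such. Nothing in the labels says that the fresh 10x libraries came from separate animals, so a p-value here measures the spread between those 2 libraries, which may be technical. Each of the other groups is a single library, and its condition cannot be told apart from the tumour it came from.

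Contraction in smooth muscle comes from filaments of smooth muscle actin, encoded by Acta2 and Actg2, pulled by smooth muscle myosin, whose heavy chain is Myh11 and whose regulatory light chain is Myl9. Tropomyosins (Tpm1, Tpm2) lie along the actin filament, calponin (Cnn1) and transgelin (Tagln) bind actin, and desmin (Des) is the intermediate filament of muscle cells. Rgs5, a regulator of G protein signalling, is no part of the filament and is used as a marker of pericytes and vascular smooth muscle, together called mural cells. In mammary tissue the same genes can be made by at least these other cells: myoepithelial cells, which are keratin-positive and squeeze the ducts, and fibroblasts that have turned into contractile myofibroblasts, as in tumour stroma.

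The 5 libraries held 15958 cells, 4000 of them in stored 10x. Lists of 5 values follow the order fresh 10x 1, fresh 10x 2, stored 10x, BD 1, BD 2. The median cell of a library had between 8926 and 12474 UMIs, and the median mitochondrial share was 6.14% to 7.17% in the 10x libraries, 15.2% in BD 1 and 19.8% in BD 2. The smallest deposited cell had 103, 102, 1029, 2577 and 1776 UMIs, so the fresh 10x libraries hold small cells that the others lack. Any pair of libraries shared 0 to 5 cell barcodes, except BD 1 and BD 2, which shared 24. Doublets were not called; cells that passed gates of more than 1 lineage were kept in a mixed class of 1.08% to 2.45% of cells. Skeletal muscle markers summed to 2.17 to 3.20 CPM (UMIs per 1000000 UMIs of the library) in every library, endothelial markers summed to 223, 145, 45.9, 38.5 and 10.5 CPM and haemoglobin genes to 18.8, 61.2, 874, 95.4 and 174 CPM, and their part in the results was not tested.

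Cells were put into classes by summed marker UMIs per 10000 UMIs of the cell, with cuts set after seeing the data. Mural-like cells were those with at least 3 Rgs5 UMIs and at least 10 Rgs5 UMIs per 10000. They did not pass the keratin, basal keratin, immune or endothelial gate, though they could hold some of those UMIs. There were 65, 58, 24, 11 and 7 of them, 165 of 15958 cells in all. The lowest Rgs5 level inside the gate was 12.7 and the highest outside it, among cells with 3 or more Rgs5 UMIs, was 8.98 per 10000. A gate on 6 other mural markers that are not in the gene set also chose 165 cells, of which 153 were the same cells. Of the mural-like cells, 21 also passed the fibroblast gate. Fibroblast-like cells numbered 201, 125, 291, 324 and 217, and keratin-positive cells that also passed a gate on Krt5, Krt14 and Krt17, the keratins of basal and myoepithelial cells, numbered 84, 47, 111, 46 and 63. Since Rgs5 chose the mural-like cells, its own level in them is not a result.

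Printed next are the regions just upstream of Myl9, the only member in whose window a CArG box was found, and of Rgs5, the gene that defined the mural-like cells. The CArG box is the element bound by serum response factor, the classical regulator of smooth muscle genes. The RefSeq table of promoters (GRCm38.p6) held 7 of the 10 members, and the 250 bases before the start were searched on both strands. Capitals mark the CArG box, which begins at position -161 counted from the RefSeq start of Myl9. That start follows the end of the searched window at 156775463 and lies inside the GENCODE gene model, and bases within the gene model are not printed. The letters are a description and not a measured site.
Myl9, chr2:156775214-156775419, + strand: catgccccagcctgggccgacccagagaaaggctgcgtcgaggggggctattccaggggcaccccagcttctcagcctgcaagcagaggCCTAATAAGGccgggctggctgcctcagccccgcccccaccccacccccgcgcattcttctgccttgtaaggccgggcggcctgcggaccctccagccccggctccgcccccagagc
Rgs5, chr1:169655251-169655500, + strand: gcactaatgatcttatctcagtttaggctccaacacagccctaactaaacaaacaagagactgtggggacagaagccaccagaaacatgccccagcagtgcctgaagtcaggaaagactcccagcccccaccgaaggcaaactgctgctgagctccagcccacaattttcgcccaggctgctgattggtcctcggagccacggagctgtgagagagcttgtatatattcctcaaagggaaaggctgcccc

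Of all 32851 promoters in that table, 482 (1.47%) held an exact CArG box in the same length. The other 6 members with an entry had no exact match in this window, which says only that these letters are not there. Of the 250 bases, only 33 for Acta2, 39 for Tpm2 and 57 for Tpm1 lay before the GENCODE gene model. For these genes little sequence upstream of that model was searched. Tagln, Myh11 and Actg2 had no entry and were not searched.

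As whole libraries, 9 of the 10 genes were lower in stored 10x than in either fresh 10x library, and Tpm1 was not. That count stands beside 43.8% of the 15690 genes with at least 20 UMIs that were also below both fresh libraries; the members were chosen on this comparison, so nothing is read from the count. Acta2 (chr19:34241090-34255590, minus strand) was at 116, 134, 35.8, 19.5 and 11.3 CPM. Both fresh 10x values lay above all 3 others, and stored 10x was 3.49-fold below the fresh mean. Actg2 (chr6:83512905-83536265, minus strand), the actin of gut and other visceral muscle, was at 3.87, 5.33, 0.768, 0.284 and 0.280 CPM, 5.99-fold lower in stored 10x. Its counts were small, 113, 160, 41, 17 and 14 UMIs.

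The myosin genes were lower as well. Myh11 (chr16:14194535-14291372, minus strand) was at 3.77, 5.56, 1.33, 0.284 and 0.320 CPM, and Myl9 (chr2:156775420-156781658, plus strand) at 23.1, 31.5, 13.7, 5.65 and 4.72. Stored 10x was 3.51-fold below the fresh mean for Myh11 and 1.99-fold below it for Myl9, the smallest drop among the 9 genes that were lower. Tagln (chr9:45929619-45936058, minus strand) was at 129, 115, 23.4, 15.7 and 15.1 CPM, 5.20-fold lower in stored 10x. Cnn1 (chr9:22099216-22109630, plus strand), a marker of mature smooth muscle, had only 22, 39, 21, 9 and 20 UMIs in whole libraries, and its 2.61-fold drop rests on these.

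Desmin showed the largest fold. Des (chr1:75360329-75368579, plus strand) was at 7.58, 9.13, 1.14, 0.350 and 0.240 CPM, 7.31-fold lower in stored 10x, and Rgs5 (chr1:169655501-169695813, plus strand) was at 104, 116, 18.3, 20.1 and 9.25, 6.01-fold lower. The tropomyosins parted. Tpm2 (chr4:43514711-43523765, minus strand) was at 63.6, 65.9, 26.8, 16.0 and 12.3 CPM, 2.41-fold lower, whereas Tpm1 (chr9:67022590-67049406, minus strand) was at 203, 222, 213, 285 and 260, with stored 10x between the fresh libraries. Positions are from the GENCODE vM21 annotation of GRCm38, the assembly that mm10 also names, and all 10 are protein-coding genes. Tagln overlaps Pcsk7 and Gm48529 on the opposite strand and Des overlaps the antisense gene Gm15179, so reads there could be shared if strand was not used in counting. In such whole-library sums, fewer cells of a type and less RNA per cell cannot be told apart, which is why the cells were then divided by class.

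**Figure D1:**
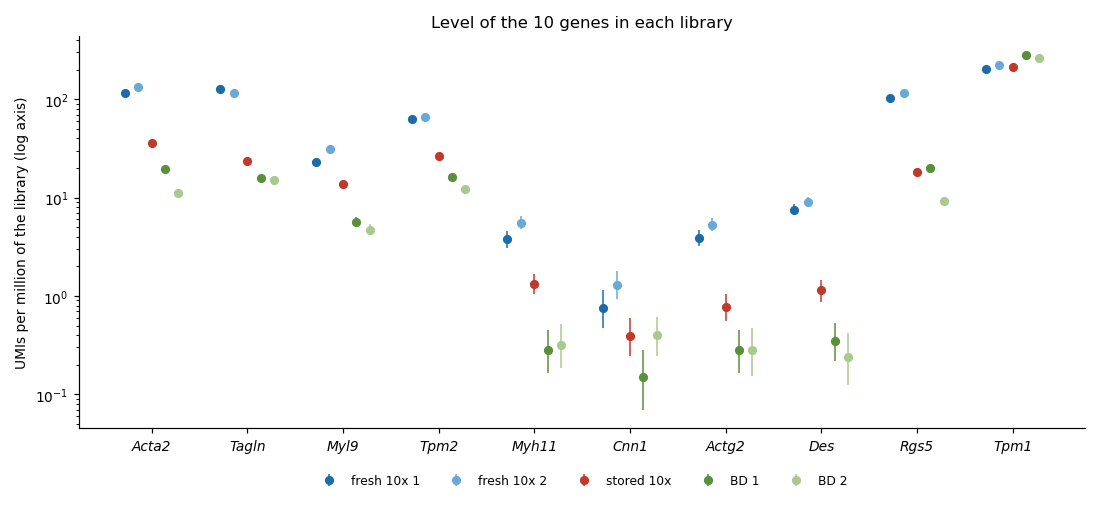
Level of each of the 10 genes in each of the 5 libraries, in CPM of the whole library on a log axis, 1 point per library. For 9 genes both fresh 10x points lie above the stored 10x and BD points; Tpm1 is the exception, with stored 10x at 213 between the fresh values of 203 and 222.

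Mural-like cells made up 3.13% of fresh 10x 1 (exact binomial 95% interval for counting error 2.43% to 3.98%) and 3.01% of fresh 10x 2 (2.30% to 3.88%). Their share was 0.600% in stored 10x (0.385% to 0.891%) and 0.292% and 0.167% in the BD libraries. Those shares are 5.12-fold, 10.5-fold and 18.4-fold below the fresh mean, and the interval of stored 10x lies apart from both fresh intervals. With the gate on the 6 other mural markers the 10x shares were 2.99%, 2.91% and 0.625%, and among cells of at least 3000 UMIs they were 2.32%, 2.91% and 0.441%. The median mural-like cell had 4047, 5246.5, 3943, 5144 and 3746 UMIs. Endothelial-like cells, the other cell of the vessel wall, were 7.42% and 4.16% in fresh 10x and 1.70%, 0.981% and 0.263% in the other libraries. Fibroblast-like cells were 9.69%, 6.49%, 7.28%, 8.59% and 5.18%, and basal keratin cells 4.05%, 2.44%, 2.78%, 1.22% and 1.51%, so for both of these the stored 10x share lay between the fresh ones. The enrichment for viable cells and the authors' own choice of cells can set these shares.

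Smooth muscle actin was divided among all 3 candidate sources. Mural-like cells held 38.3% (36.6% to 39.9%) and 49.2% (47.7% to 50.8%) of the Acta2 UMIs of the fresh 10x libraries, and 28.9%, 15.3% and 13.0% in the other libraries. Fibroblast-like cells held 46.7%, 27.8%, 26.4%, 65.7% and 54.2%. Basal keratin cells held 6.78%, 5.91%, 27.7%, 7.28% and 14.9%, the highest share being that of stored 10x. Of the mural-like share in fresh 10x, cells that also passed the fibroblast gate, 6 and 9 in number, held 9.12% and 19.4% of the library's Acta2. In stored 10x 1 such cell held 0.0523%. Cells in no class held 3.02%, 12.1%, 4.603%, 0.0857% and 7.64% of Acta2, and in fresh 10x 2 a single cell held 433 of the 487 UMIs concerned.

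Transgelin UMIs were found most in fibroblast-like cells. Fibroblast-like cells held 66.5%, 58.1%, 48.9%, 78.2% and 81.0% of its UMIs and mural-like cells 21%, 30.1%, 24.3%, 11.03% and 7.03%. The BD 2 values rest largely on 1 cell, which held 317 of the 754 Tagln UMIs of that library. The genes that sat mostly in mural-like cells in every 10x library were Des (78.3%, 83.6% and 78.7% of its UMIs), Myh11 (85.5%, 60.5% and 54.9%) and Actg2 (62.8%, 69.4% and 68.3%). Rgs5 itself, which set the gate, was at 87.9%, 91.2% and 78.5%. Mural-like cells that also passed the fibroblast gate held 33.6% and 48.1% of Actg2 in fresh 10x. Without them, mural-like cells held 29.2% and 21.25% of Actg2 there, 70% and 38.3% of Myh11, and 65.6% and 65.7% of Des. A single cell held 31.9%, 35% and 39.0% of the Actg2 UMIs of the 10x libraries. For Myl9 the mural-like share was 41.9%, 48.2%, 25.7%, 12.4% and 8.90%. In no library did keratin-positive basal cells hold most of Acta2, Tagln, Myh11, Des or Actg2. For Myl9 and Cnn1 it was otherwise in stored 10x and BD 2. There basal keratin cells held more UMIs of each than any other lineage class, although Cnn1 had only 21 and 20 UMIs in these libraries.

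Both tropomyosins were also epithelial. Keratin-positive cells without basal keratins, called luminal here, held 69%, 72.1%, 83.9%, 82.0% and 84.2% of Tpm1 UMIs. They held 17.4% and 17.5% of Tpm2 UMIs in fresh 10x, 716 of the 1432 UMIs in stored 10x, and 56.3% and 54.6% in the BD libraries, while the mural-like share of Tpm2 was 22.7%, 28.3%, 9.99%, 3.95% and 1.96%. Tpm1, the gene that did not drop, was the gene with the largest luminal share.

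**Figure D2:**
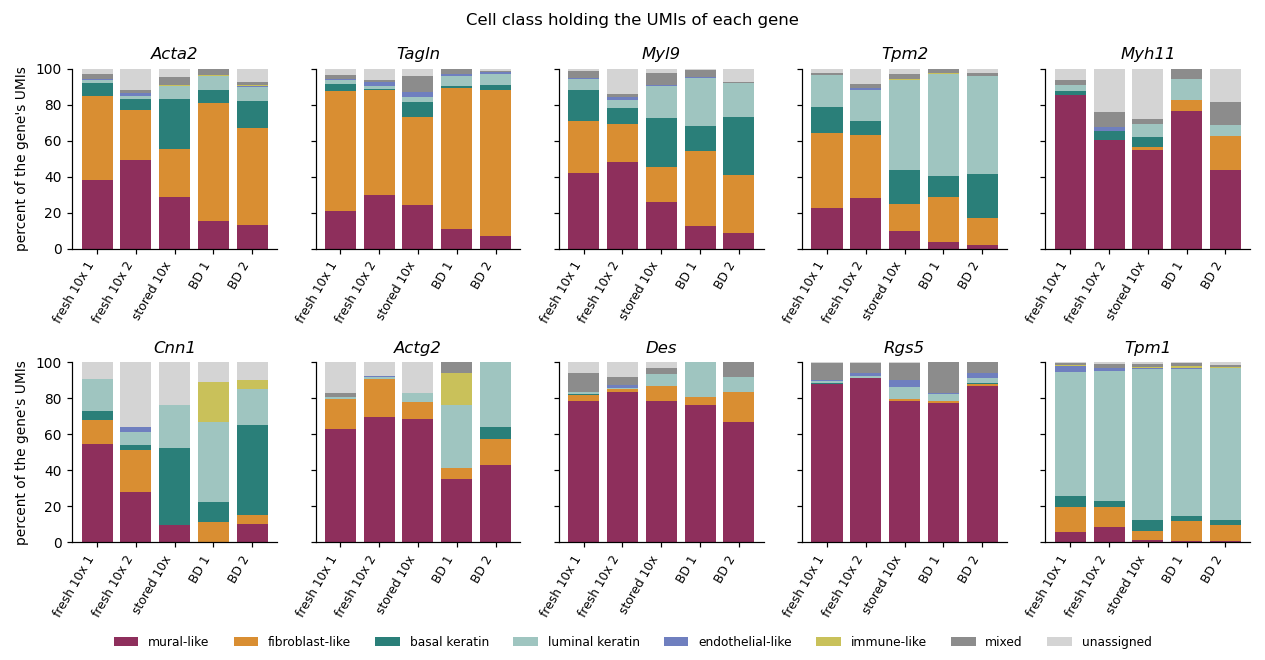
Percent of each gene's UMIs found in each cell class, as stacked bars from 0 to 100 for each gene and library. Mural-like cells hold most of the Des UMIs in all 5 libraries, fibroblast-like cells lead for Tagln, luminal keratin cells hold most of Tpm1, and basal keratin cells take 27.7% of Acta2 in stored 10x.

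Per cell class the order of levels was steep. In mural-like cells Acta2 was at 38.9, 58.8, 57.0, 28.3 and 26.1 UMIs per 10000 UMIs of the class, and in fibroblast-like cells at 6.17, 5.93, 1.53, 1.21 and 0.890. Basal keratin cells were at 2.40, 4.04, 4.13, 1.46 and 1.65 per 10000. The mural-like level was the highest of all classes in each library, 6.31-fold and 9.91-fold above fibroblast-like cells in the fresh ones. The share of immune-like cells with an Acta2 UMI, taken as background from free RNA, was 3.20%, 2.44%, 2.02%, 2.27% and 1.24% at median depths of 3781, 4435, 3302.5, 8923 and 5735.5 UMIs. Against this, 84.6%, 82.8%, 83.3%, 63.6% and 85.7% of mural-like cells had one.

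Within mural-like cells of stored 10x the contractile genes were not lower as a set. Acta2 at 57.0 lay between the fresh values, and so did Tpm1 (10.2, 17.4 and 12.9 per 10000 in the 10x libraries), Tpm2 (12.7, 16.6 and 14.8) and Actg2 (2.14, 3.29 and 2.89). Tagln (23.7, 30.7 and 31.3), Myh11 (2.83, 2.99 and 4.02) and Myl9 (8.51, 13.5 and 19.4) were above both fresh values. Only Des (5.20, 6.79 and 4.95), Cnn1 (12, 11 and 2 UMIs) and the gate gene Rgs5 were below both. That is 3 of 10 members below both fresh values, beside 45.4% of 5292 genes measured in these cells. The stored 10x value comes from 24 cells, which limits every one of these levels.

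**Figure D3:**
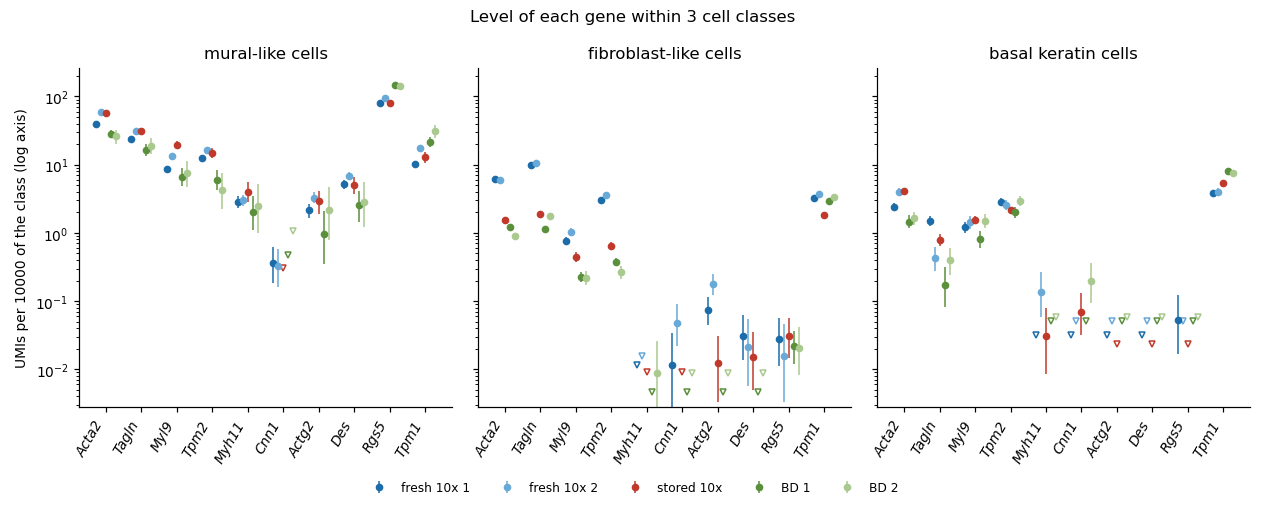
Level of each gene in mural-like, fibroblast-like and basal keratin cells, in UMIs per 10000 UMIs of the class on a log axis, 1 point per library. A triangle marks the level that 3 UMIs would give where fewer were counted. Mural-like levels of stored 10x lie among or above the fresh 10x points for 7 genes, while its fibroblast-like levels of Acta2, Tagln and Tpm2 lie well under them.

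Mural-like cells were themselves divided. In fresh 10x, 15 of 65 and 14 of 58 had at least 50 Acta2 UMIs per 10000, a cut chosen after seeing the values, and these held 74.6% and 78.8% of the mural-like Acta2. In stored 10x 9 of 24 cells were of this kind and held 79.7%. Actg2 went with them in the 10x libraries: it was at 6.15 per 10000 in the cells high in Acta2 against 0.429 in the others in fresh 10x 1, at 9.37 against 0.0905 in fresh 10x 2, and at 6.66 against 0 in stored 10x. In the BD libraries, with 2 and 1 such cells, Actg2 was at 0 against 1.18 and at 7.09 against 0.894. Rgs5 was at 79.9 against 80.7, 84.3 against 99.6, 74.5 against 83.1, 127 against 152 and 103 against 153, lower in the cells high in Acta2 in each library. There were also 10, 10, 4, 4 and 1 mural-like cells with no Acta2 UMI.

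Across the single mural-like cells of a 10x library, 65, 58 and 24 of them, the ranks of Acta2, Tagln, Myl9, Tpm1 and Tpm2 went together. Spearman's rho over the 10 pairs of these genes ran from 0.577 to 0.875 in fresh 10x 1, from 0.658 to 0.805 in fresh 10x 2 and from 0.548 to 0.878 in stored 10x. With Rgs5 the same genes had rho between 0.112 and 0.340, between -0.214 and 0.122, and between -0.157 and 0.227. With the sum of the 6 other mural markers rho was negative in fresh 10x, from -0.364 to -0.244 and from -0.326 to -0.151, and it ran from -0.261 to 0 in stored 10x. These are descriptions over cells that share a library and differ in depth.

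**Figure D4:**
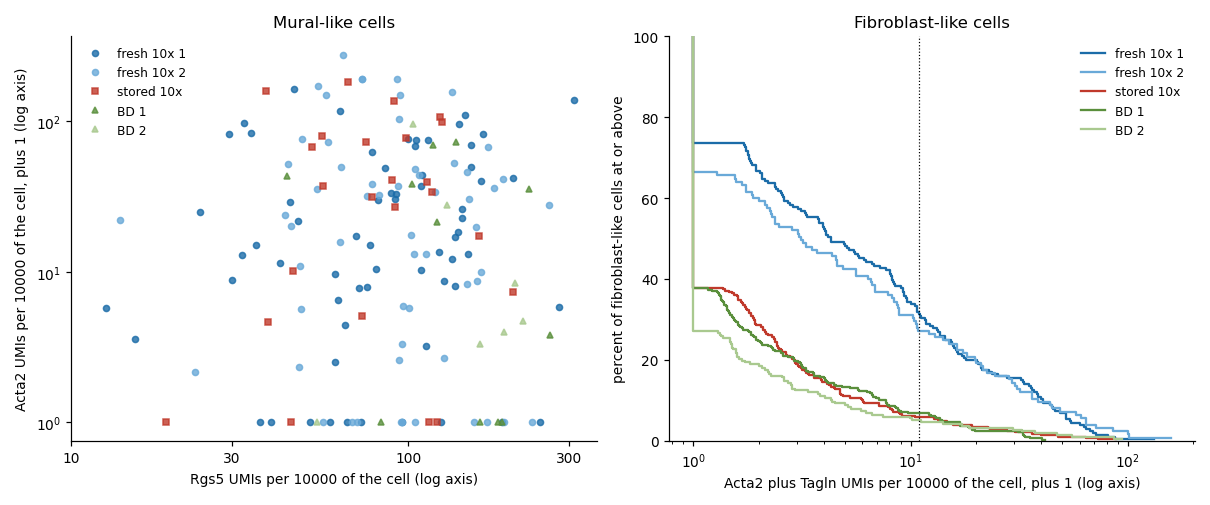
Left, Rgs5 against Acta2 plus 1 in each mural-like cell, both in UMIs per 10000 on log axes, coloured by library. Right, percent of fibroblast-like cells at or above each summed level of Acta2 and Tagln (per 10000, plus 1, log axis), 1 line per library, where at the dotted line of 10 the fresh 10x lines stand at 30.8% and 26.4% and the other 3 lines between 5.07% and 6.79%.

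In fibroblast-like cells the contractile genes of stored 10x were below fresh. Acta2 was 3.94-fold below the fresh mean. Tagln was at 9.74, 10.6, 1.86, 1.16 and 1.78 UMIs per 10000, 5.46-fold lower in stored 10x. Tpm2 was at 2.99, 3.63, 0.640, 0.371 and 0.266, 5.18-fold lower. Myl9 was at 0.762, 1.04, 0.439, 0.223 and 0.219, 2.06-fold lower, and Tpm1 was at 3.22, 3.76, 1.83, 2.93 and 3.39. Actg2 had 19, 34, 4, 1 and 2 UMIs. Of 7 members with enough counts, 6 were below both fresh values in stored 10x, all but Rgs5, beside 39.3% of 11165 genes in these cells; as with whole libraries, the choice of the genes used this comparison. Myh11, the heavy chain, had 0 UMIs in the fibroblast-like cells of both fresh libraries and 1, 1 and 3 in the others.

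In the other 3 libraries fewer fibroblast-like cells than in fresh 10x were high in contractile transcripts. Cells with at least 10 Acta2 and Tagln UMIs per 10000, a cut set after seeing the data, were 62 of 201 (30.8%) and 33 of 125 (26.4%) in fresh 10x, against 17 of 291 (5.84%), 22 of 324 (6.79%) and 11 of 217 (5.07%) in stored 10x, BD 1 and BD 2. Within 2-fold of that cut lay 53, 27, 19, 32 and 9 cells. Acta2 in the cells above it was at 14.1, 17.3, 14.0, 12.0 and 13.3 per 10000, a level that the cut itself helps to set. The 10 cells highest in Acta2 held 39.7%, 69.7%, 63.7%, 63.0% and 81% of the Acta2 of all fibroblast-like cells. With every cell thinned to 3000 UMIs, leaving 191, 118, 273, 324 and 216 cells, those with at least 3 Acta2 and Tagln UMIs were 36.5%, 32.4%, 7.39%, 8.16% and 6.0%.

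Fibroblast-like cells also differed in another set of genes. Cells with a sum of at least 20 UMIs per 10000 for Postn, Fap, Lrrc15 and Cthrc1, genes of matrix-producing tumour fibroblasts, are called matrix-high. They were 88.1% and 83.2% of fibroblast-like cells in fresh 10x and 51.9%, 44.8% and 37.3% in the other libraries. Postn made up most of the sum in fibroblast-like cells. It gave 48.1 of 64.8, 42.2 of 58.9, 31.4 of 41.1 and 22.6 of 30.6 per 10000 in fresh 10x 1, fresh 10x 2, stored 10x and BD 1. Dpt, which marks other fibroblasts, was at 2.29 and 3.04 per 10000 in the matrix-high cells of fresh 10x and 8.20 in those of stored 10x. Acta2 in the matrix-high cells alone was still lower, at 6.67, 6.92, 2.27, 2.53 and 1.75 per 10000. When the fibroblast-like difference in Acta2 between stored 10x and each fresh library was divided by this class, the smaller share of matrix-high cells made up 25.1% and 27.0% of it, and the difference in level within the matrix-high and matrix-low cells together 74.9% and 73.0%. For Tagln the level part was 78.9% and 76.4%. In matrix-low cells alone, Acta2 was at 1.29 and 0.0367 per 10000 in fresh 10x and 0.523 in stored 10x, so the stored value lay between them.

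Few of the keratin-positive basal cells had a contractile profile. Those with at least 3 Acta2 UMIs were 14 of 84, 7 of 47, 21 of 111, 5 of 46 and 5 of 63 cells (16.7%, 14.9%, 18.9%, 10.9% and 7.94%), and they held 92.9% to 98.7% of the Acta2 of the class. Their Acta2 was at 23.2, 28.2, 24.3, 24.5 and 30.9 UMIs per 10000. Krt5, a keratin of the basal layer, was at 19.7, 14.1, 17.4, 29.95 and 23.4 per 10000 in them. In the basal keratin cells under 3 Acta2 UMIs it was at 8.20, 9.36, 7.10, 9.64 and 15.1. The other keratins of the gate did not keep this order in every library. Krt14 was at 52.9, 28.0, 31.5, 25.1 and 10.3 against 36.0, 29.5, 30.2, 17.9 and 17.9. Krt17 was at 28.3, 2.92, 9.68, 9.08 and 5.15 against 8.96, 5.54, 9.90, 6.19 and 6.82. Rgs5, Actg2 and Des had 0 UMIs in the cells with at least 3 Acta2 UMIs in every library. In stored 10x the class as a whole had Acta2 (4.13), Myl9 (1.54) and Tpm1 (5.30) above both fresh values and Tpm2 (2.14) below both; 1 of 5 members with enough counts was below both, beside 36% of 9100 genes. In BD 1 4 of 5 were below both, all but Tpm1, beside 36.9% of 8532 genes.

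The difference between stored 10x and each fresh library was then split by class into a part from the class's share of all UMIs and a part from the gene's level within the class, with midpoint weights, and the parts were averaged over the fresh libraries. For Rgs5 the smaller share of mural-like cells made up 86.2% of the difference, for Des 72.1%, for Actg2 69.4% and for Myh11 98.7%. Their level parts in mural-like cells were 5.71%, 9.46%, -3.08% and -21.9%, where a negative part means that the level went against the drop. The sign for Actg2 turned with the library, -16.0% against fresh 10x 1 and 5.75% against fresh 10x 2. Acta2 had 56.3% from the mural-like share and -6.04% from the level in mural-like cells, the latter being -14.9% against fresh 10x 1 and 1.20% against fresh 10x 2. A further 34.7% of the Acta2 difference came from the lower level within fibroblast-like cells and 5.98% from their share of UMIs.

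Tagln and Tpm2 had their largest part in fibroblasts. The fibroblast-like level made up 57.6% of the Tagln difference and 47.7% of that of Tpm2, while the mural-like share made up 28.2% and 36.8%. Myl9 had 106% from the mural-like share, set against -40.5% from the mural-like level, with 22.6% from the fibroblast-like level. For Myl9 the fresh libraries differed, with share parts of 142% and 87.0% and level parts of -76.3% and -21.5% against fresh 10x 1 and 2. Cnn1, on the few UMIs stated, gave 41.3% for the mural-like share, which was 75.3% against fresh 10x 1 and 27.7% against fresh 10x 2, where the fibroblast-like level gave 32.7%. The level of cells in no class made up 73.3% of the Cnn1 difference, 39.1% for Myh11, 32.5% for Myl9, 26.5% for Actg2 and 20.7% for Acta2, set against negative parts from their share of -45.9%, -26.8%, -17.5%, -16.3% and -11.5%. Against fresh 10x 1 and 2 taken singly, the mural-like share gave 57.4% and 55.5% for Acta2, 25.03% and 31.9% for Tagln, 75.6% and 69.3% for Des, and 134% and 78.1% for Myh11. Tpm1 had no drop to split. The split is arithmetic on 3 libraries and has no test.

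**Figure D5:**
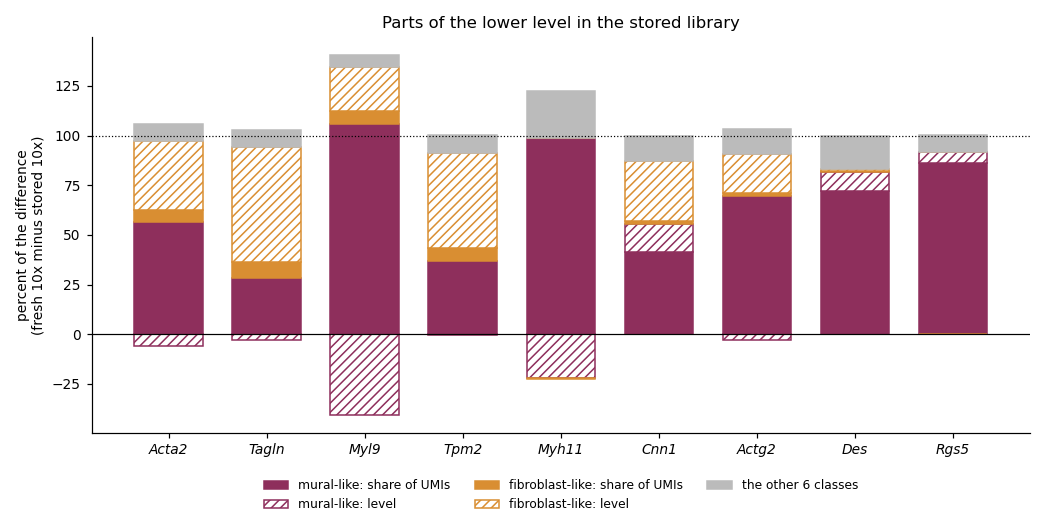
Percent of the difference between stored 10x and fresh 10x in each gene's library level that comes from the share or from the level of mural-like and fibroblast-like cells, as the mean over the 2 fresh libraries. The other classes are drawn together in grey, and Tpm1 is left out because it did not drop. Of the mural-like and fibroblast-like parts, the mural-like share is the largest for Des, Actg2, Myh11, Myl9 and Acta2, and for Rgs5, which set the gate. The fibroblast-like level is the largest for Tagln and Tpm2. Against each fresh library taken singly, which is not drawn, the largest part is the same for these genes, while for Cnn1 it differs.

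In BD 1 the contractile genes were lower than in fresh 10x, again with Tpm1 as the exception. Whole libraries were called lower for 9 of 10 members by edgeR's quasi-likelihood test with Benjamini-Hochberg adjustment over 15859 genes, beside 41.4% of all genes tested that were called, 20.3% lower and 21.1% higher. Des had the largest change, with a log2 fold change of -4.70 (SE 0.32, adjusted p = 0.00198 by edgeR), and Myh11 and Actg2 followed at -4.16 (SE 0.46, adjusted p = 0.00422) and -4.14 (SE 0.43, adjusted p = 0.00374). Tagln changed by -3.09 (SE 0.14, adjusted p = 0.00130), Acta2 by -2.82 (SE 0.14, adjusted p = 0.00151) and Rgs5 by -2.59 (SE 0.13, adjusted p = 0.00145). Cnn1 at -2.89 (SE 0.69, adjusted p = 0.0299) rests on 9 UMIs in BD 1. Myh11, Actg2 and Cnn1 were at 0.284, 0.284 and 0.150 CPM in BD 1. They passed the filter on low counts only through the fresh 10x libraries, where they were high, so nothing is read from their calls. Myl9 and Tpm2 changed by -2.41 and -2.15 (adjusted p = 0.00347 and 0.00156). Tpm1, at 0.28 (SE 0.11, adjusted p = 0.0986), did not pass. The spread came from the 2 fresh 10x libraries, and the single BD 1 library was assumed to vary like them. Platform and tumour sample cannot be told apart here, and this comparison shares its control libraries with that of storage. In the alternative that adds BD 2 to BD 1 by its title, edgeR called 57.2% of 15749 genes, and 9 members were lower (28% of genes) and Tpm1 higher (29.3% of genes) at 0.27 on the log2 scale (adjusted p = 0.0358).

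In the 11 mural-like cells of BD 1, 8 of 10 members were below both fresh values, all but Tpm1 and Rgs5, beside 47.5% of 5161 genes. Acta2 was at 28.3 and Tagln at 16.4 UMIs per 10000. In fibroblast-like cells 6 of 7 members with enough counts were below both fresh values in BD 1, beside 36.5% of 11743 genes. Fitted in these cells alone, an analysis added after seeing the data, 6 members could be tested and 5 were lower in BD 1, beside 44.5% of 11232 genes called, 22.8% lower. The log2 changes there were -2.44 for Acta2 (adjusted p = 1.54e-07 by edgeR), -3.25 for Tagln, -3.27 for Tpm2 and -2.11 for Myl9. The call of Actg2 rests on 1 UMI in BD 1. Actg2 passed the filter on low counts only through fresh 10x, so nothing is read from its call. Tpm1 was at -0.36 there (adjusted p = 0.109). In a fit of luminal cells alone, also added after seeing the data, 43.2% of genes were called. Tpm1 was higher there in BD 1, by 0.52 (adjusted p = 0.0143 by edgeR), beside 21.7% of genes called higher, and Tagln lower, by -1.55 (adjusted p = 0.0347), beside 21.5% called lower. Luminal Tagln was low, at 0.0369, 0.0220 and 0.0112 UMIs per 10000 in fresh 10x 1, fresh 10x 2 and BD 1. Only 3.19%, 2.15% and 1.19% of these cells had a Tagln UMI, and a part from free RNA was not tested.

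Most of the rest of the contractile apparatus did not pass the test. Of 36 further genes of smooth muscle filaments and their regulators, 35 could be tested between BD 1 and fresh 10x, with a median log2 change of -0.13 beside 0.01 for all genes. By edgeR 6 were lower and 3 higher, beside the 20.3% and 21.1% of all genes called in the same fit, so both counts are near or under the background. The largest changes among the lower ones were in Ppp1r14a, an inhibitor of myosin phosphatase (-2.39), Synpo2, an actin-bundling protein of the Z-disc (-1.58), and Cacna1c, the L-type calcium channel (-1.42). Pdlim3, Mylk, the kinase of the myosin light chain, and Myl6 were the other ones. The higher ones were the broadly expressed Flna (1.14), Actn1 (0.95) and Tagln2 (0.49). Between stored and fresh 10x, edgeR called 0 of 34 of them, with 13 at an unadjusted p under 0.05 and 2 called lower by DESeq2. Over all genes that comparison called 35 of 15353 (0.228%), of which 27 were higher (0.176%) and 8 lower (0.0521%), with 2612 at an unadjusted p under 0.05. Their median storage change was -0.07 on the log2 scale.

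The pattern of Acta2 over 27 profiles, each a cell class in a library with at least 20 cells, was compared with 11777 other genes. Outside the set the nearest were Fads3, Ndrg2, Cryab, Arhgef17 and S100a11, with Pearson's r of 0.945, 0.920, 0.899, 0.898 and 0.897 on log2 levels. Members of the set gave 0.973 for Myl9, 0.963 for Tpm2, 0.917 for Tagln and 0.677 for Rgs5. Nearest to Rgs5 were Rasl12 (0.959), Slc16a12 (0.956), Nr1h3 (0.943), Ndufa4l2 (0.938) and Mnd1 (0.925), and among members Des (0.972), Myh11 (0.956) and Actg2 (0.941). Myl9, Tpm2 and Tagln thus had the higher r with Acta2, and Des, Myh11 and Actg2 with Rgs5. The profiles share libraries and depth, and Rgs5 set a gate, so these values are descriptions.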

How the data were processed

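The authors deposited matrices of raw UMI counts per gene and cell, whole numbers without normalisation; Cell Ranger 3.0.1 and the mm10 build are named in the submitters' processing notes, and the counting program for each platform is not given in the sources used here. The main matrix of each of the 5 samples was used. The authors had already selected the cells. Library totals ran from 29166129 to 59957945 UMIs. The members and gene lists were chosen with earlier results of these data known, and the gates' cuts were set after seeing them. Markers were summed per cell: a class needed at least 3 UMIs and a minimum per 10000 UMIs of 8 (keratin), 10 (basal keratin, immune, endothelial, Rgs5, the 6 other mural markers) or 50 (fibroblast).

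UMI counts were summed per library and tested with edgeR 4.0.16 in R 4.3.3 (TMM scaling, filterByExpr, quasi-likelihood test, Benjamini-Hochberg adjustment over all genes tested, threshold 0.05), with fresh 10x (2 libraries) against BD 1 or stored 10x. Each SE given is the absolute log2 fold change divided by the square root of the quasi-likelihood F statistic, and is not an edgeR output. DESeq2 1.42.0 was an alternative. Other alternatives were no filter on low counts, cells of at least 3000 UMIs, at most 20% mitochondrial UMIs, BD 2 grouped by its title, each fresh library left out, and other gates. Named genes were the members, from the list of other contractile genes up to 3 in each direction with the largest change, and the 5 genes most like Acta2 and Rgs5 in Pearson's r of log2(UMIs per 10000 + 0.1), among genes with at least 200 UMIs on each platform; Pdlim3, Mylk and Myl6 were named after their values were seen. Intervals are exact 95% (Clopper-Pearson) and cover counting error only. On simulated counts the edgeR step recovered 96% of 2-fold and 100% of 4-fold changes for the comparison of BD 1 with fresh 10x (14908 genes), with 9 false calls. The simulation gave every library the same spread of 10% beyond counting error and changed only well-counted genes. Its rates therefore do not cover genes of few UMIs such as Cnn1. Python 3.11.15, numpy 2.4.6, pandas 2.3.3, scipy 1.17.1 and matplotlib 3.10.9 were used.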

Additional observations from a re-analysis of the deposited data

Results flagged for a closer look

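In 4 members stored 10x lay below both fresh 10x libraries in fibroblast-like cells and above both in another class. Of all genes measured, 39.3% lay below both in fibroblast-like cells, and 33.6% and 31.3% above both in mural-like and basal keratin cells. The share of genes with both positions was not counted, so nothing is read from the 4. Some margins were small. Acta2 in basal keratin cells was at 4.13 in stored 10x and 4.04 in fresh 10x 2, and Tagln in mural-like cells at 31.3 and 30.7. The difference between classes was not tested. As a ratio of the stored 10x level to the mean of the fresh 10x levels, Acta2 was 0.254 in fibroblast-like cells and 1.29 in basal keratin cells. Tagln was 0.183 in fibroblast-like cells and 1.15 in mural-like cells. Myl9 was 0.486 in fibroblast-like cells, 1.76 in mural-like cells and 1.16 in basal keratin cells. Tpm1 was 0.523 in fibroblast-like cells and 1.36 in basal keratin cells. The lower side is the fibroblast-like class in all 4 genes, and stored 10x is a single library.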

How the results depend on the processing

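The main limits are the single stored and BD libraries, the 24 and 11 mural-like cells in stored 10x and BD 1, and the few UMIs of Cnn1, Actg2 and Myh11. No paired analysis was possible because the groups compared share fewer than 2 replicate numbers. The 9 members lower in BD 1 were 8 with no filter on low counts (Cnn1 was lost, adjusted p = 0.0518 by edgeR), 5 of 6 tested in fibroblast-like cells alone and 1 of 6 in luminal keratin cells alone. The 9 include Myh11, Cnn1 and Actg2, and the 5 include Actg2, all of which passed the filter only through fresh 10x. Tpm1 turned to -0.36 in fibroblast-like cells alone. The 9 other contractile genes called between platforms were 4 with no filter, 6 with DESeq2, 7 in cells of at least 3000 UMIs, 12 at 20% mitochondrial UMIs or less, 13 with BD 2 added, 13 in fibroblast-like cells alone and 9 in luminal keratin cells alone. For storage they were 2 with DESeq2 and 0 in the main fit, with no filter, and under the UMI and mitochondrial limits. Over all genes, the 35 storage calls were 412 with DESeq2, 2 with no filter, 17 in cells of at least 3000 UMIs and 71 at 20% mitochondrial UMIs or less; the cause was not tested. The mean mural-like share of fresh Acta2, 43.8%, was 29.5% when cells that also passed the fibroblast gate were kept out, and 38.3% to 49.2% with either fresh library left out. The mural-like share part of the Acta2 drop, 56.3%, was 39.8% with those cells kept out, 58.9% in cells of at least 3000 UMIs, 58.7% at 20% mitochondrial UMIs or less, and 55.5% to 57.4% with either fresh library left out. With those cells kept out, the mural-like share part of Actg2, 69.4%, was 39.3%. That of Myh11, 98.7%, was 72.6%, and that of Des, 72.1%, was 55.45%. The mural-like level part of Cnn1, 14.2%, was -26.2% with the gate on 6 other markers and -37.6% with gate cuts divided by 2. Leaving out a fresh library leaves 1 library against 1, which gives values and no test. Keeping out cells, the mitochondrial limit in the split and the fits in single classes were chosen after seeing the data. Of the other values of the split, 374 stayed within the spread of the fresh libraries and 48 moved.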

Other observations

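Among cells in no class, 5 had at least 40 Acta2 UMIs, and they are named after their values were seen. The first, in fresh 10x 2, had 433 Acta2, 172 Tagln, 140 Tpm2, 106 Myl9 and 37 Myh11 UMIs of 13118, with 5 Rgs5 UMIs, too few per 10000 for the mural gate. It alone held 22.2% of the Myh11 UMIs of its library. A cell in stored 10x with 83 Acta2 and 3 Rgs5 UMIs of 3403 held 19 Myh11 UMIs, 26.8% of the Myh11 of that library. The other 3 cells had 97, 43 and 40 Acta2 UMIs and no Rgs5. Cells with many contractile transcripts can thus lie outside a class defined by Rgs5, and the Myh11 shares by class depend on them.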
